A study of Homo sapiens with 6 samples.

Results

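The genes described here mark epithelial and kidney tubule identity: MAL2, EPCAM, KRT19, KRT18, KRT8, CLDN3, LRP2, CDH1 and ESRP1. A member was measured where an array row carried its symbol and no other symbol in the platform's annotation. Of the 9 genes, 8 had such a row, 1 row each, out of 15492 rows, and ESRP1 was not analysed here. The genes were chosen by their epithelial and kidney roles and, for MAL2, EPCAM, KRT19 and LRP2, by their measured log2 differences between the cell lines, which were already known. The differences between an APE1 line and the vector line are therefore given as a description, with no test.

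The samples are 3 sublines of HEK293, a widely used line of human embryonic kidney origin, and all were kept in puromycin (1 µg per ml). One line carries a tet-on construct for a fusion of ubiquitin to APE1 (ubAPE1), one for wild-type APE1 (wtAPE1) and one the empty vector. Each was sampled with doxycycline (2 µg per ml, added for 16 h, dox+) and without it (dox-). APE1, encoded by APEX1, is the endonuclease that cuts DNA at abasic sites in base excision repair. RNA was measured on Affymetrix whole-transcript arrays. Each of the 6 groups is 1 deposited column, in which the authors had already averaged 3 biological replicates, so that no spread between replicates can be given. Whether a line is 1 clone is not given in the sources used here, so the construct and other differences between the lines cannot be told apart.

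Epithelial cells form sheets with an apical and a basal face. Keratins give them an inner scaffold, cadherins and claudins join neighbours, and sorting proteins such as MAL2 carry cargo to the apical face. In the kidney, tubule cells add endocytic receptors such as LRP2 to take up filtered protein. HEK293 cells are known to hold a mixture of kidney, epithelial and neuronal traits.

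Levels are log2 values per array row. The medians of the 6 columns over the kept rows lay between 6.56 and 6.81, so each column was shifted by between -0.13 and 0.12 to one common median, and all levels and differences below are on that scale. The 11619 kept rows have a mean at or above 5.03 log2, the 25th percentile of all row means. Of the member rows, 7 of 8 passed, and CDH1 did not. MAL2 and LRP2 passed only through the vector line, since the mean of their 4 APE1-line values as deposited was 4.07 and 4.96, under 5.03. As a check of the labels, APEX1 was at 10.68 in ubAPE1 dox+ and 9.76 in ubAPE1 dox-, at 10.71 in wtAPE1 dox+ and 9.62 in wtAPE1 dox-, and at 9.60 in vector dox+ and 9.41 in vector dox-. It thus responded to doxycycline by 0.92, 1.09 and 0.19 log2 in the ubAPE1, wtAPE1 and vector lines.

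Among the members, the apical sorting gene and the surface adhesion gene set the APE1 lines and the vector line furthest apart. MAL2, a membrane protein of apical transport, was at 4.16 in ubAPE1 dox+ and 3.96 in ubAPE1 dox-, at 4.05 in wtAPE1 dox+ and 4.32 in wtAPE1 dox-, and at 9.03 in vector dox+ and 8.60 in vector dox-. The 4 APE1-line columns lay within 0.37 of each other, and the lower vector column stood 4.27 above the highest of them. Averaged over both doxycycline states, the difference from the vector line was -4.76 in the ubAPE1 line and -4.62 in the wtAPE1 line, which is 27.0-fold and 24.7-fold lower. MAL2 was the lowest of the 11619 kept rows in both contrasts. Values this near the bottom of the scale can understate a fold, and whether they lie above the array's background is not given in the sources used here.

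EPCAM, an adhesion protein on the sides of epithelial cells, held the second lowest rank (2 of 11619) in both contrasts. Its level was 5.01 in ubAPE1 dox+ and 5.23 in ubAPE1 dox-, 4.93 in wtAPE1 dox+ and 5.24 in wtAPE1 dox-, against 8.24 in vector dox+ and 7.90 in vector dox-. The APE1-line columns spanned 0.31, and a gap of 2.66 separated them from the vector columns. The mean difference was -2.95 in the ubAPE1 line and -2.98 in the wtAPE1 line, or 7.71-fold and 7.90-fold lower. For both genes the distance was wider with doxycycline than without it. EPCAM differed by -3.22 (dox+) and -2.67 (dox-) in the ubAPE1 line, and by -3.30 and -2.66 in the wtAPE1 line. MAL2 differed by -4.87 and -4.64 in the ubAPE1 line, and by -4.98 and -4.27 in the wtAPE1 line.

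**Figure D1:**
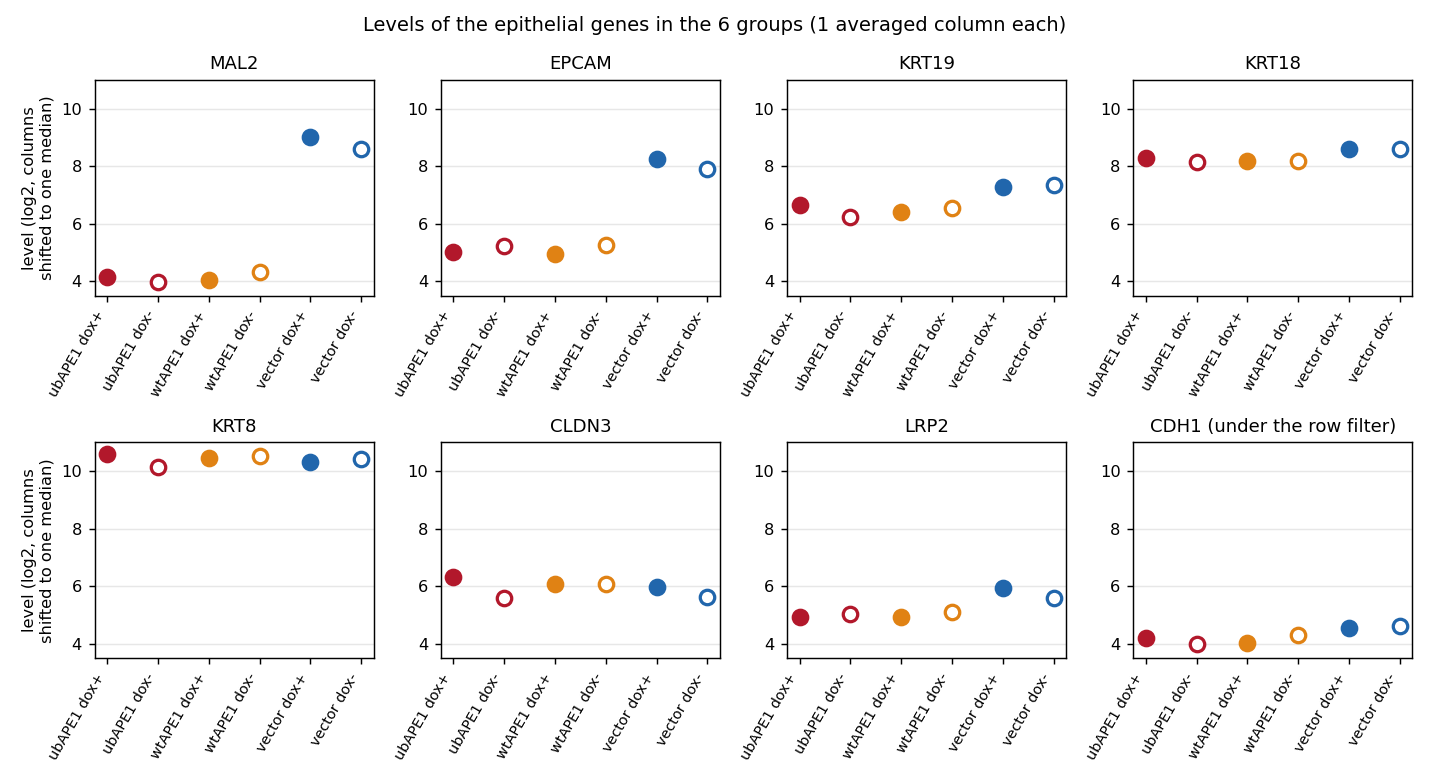
Level of each epithelial gene (log2, columns shifted to one median) in the 6 groups, 1 averaged column per point, with filled points for dox+ and open points for dox-. MAL2 and EPCAM stand high in both vector columns alone, with gaps of 4.27 and 2.66 log2, while KRT8 and CLDN3 show no such gap.

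The keratins did not differ between the lines as a block. KRT8 and KRT18 form the basic filament pair of simple epithelia, and KRT19 is a further type I keratin of ducts and tubules. KRT19 was at 6.64 in ubAPE1 dox+ and 6.25 in ubAPE1 dox-, at 6.40 in wtAPE1 dox+ and 6.55 in wtAPE1 dox-, and at 7.26 in vector dox+ and 7.33 in vector dox-. The vector columns were again both above all APE1-line columns, here by 0.63. The mean difference was -0.86 in the ubAPE1 line (1.81-fold lower) and -0.82 in the wtAPE1 line (1.77-fold lower). Unlike EPCAM and MAL2, KRT19 in the ubAPE1 line was further from the vector line without doxycycline (-0.63 with it and -1.09 without it).

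KRT18, the type I partner of KRT8, was at 8.29 in ubAPE1 dox+ and 8.12 in ubAPE1 dox-, at 8.19 in both wtAPE1 columns, and at 8.59 in vector dox+ and 8.58 in vector dox-. All APE1-line columns lay below the vector columns, by at least 0.29, but the mean differences of -0.38 and -0.40 in the ubAPE1 and wtAPE1 lines did not reach 1.5-fold (0.585 log2), the size used here to count a row as higher or lower. KRT8, the type II partner, showed no separation of the lines. Its levels were 10.61 in ubAPE1 dox+ and 10.15 in ubAPE1 dox-, 10.44 and 10.52 in wtAPE1 dox+ and dox-, and 10.33 and 10.41 in vector dox+ and dox-. The highest and the lowest of these 6 values both belong to the ubAPE1 line. The mean differences from the vector line were 0.01 in the ubAPE1 line and 0.11 in the wtAPE1 line.

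The tubule receptor LRP2 (megalin), which takes up filtered protein in the proximal tubule, was at 4.94 in ubAPE1 dox+ and 5.04 in ubAPE1 dox-, at 4.92 in wtAPE1 dox+ and 5.11 in wtAPE1 dox-, and at 5.94 in vector dox+ and 5.58 in vector dox-. The lower vector column stood 0.47 above the highest APE1-line column. The mean difference was -0.77 in the ubAPE1 line and -0.74 in the wtAPE1 line (1.71-fold and 1.67-fold lower). As for MAL2 and EPCAM, the distance was wider with doxycycline, at -1.001 against -0.54 in the ubAPE1 line and -1.02 against -0.47 in the wtAPE1 line. Without doxycycline alone, LRP2 thus did not reach 1.5-fold in either line.

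CLDN3, a sealing claudin of tight junctions, lay at 6.34 in ubAPE1 dox+ and 5.60 in ubAPE1 dox-, at 6.09 in wtAPE1 dox+ and 6.08 in wtAPE1 dox-, and at 5.97 in vector dox+ and 5.64 in vector dox-. The groups overlapped, with the ubAPE1 line holding both the highest and the lowest column. CLDN3 differed from the vector line by 0.17 in the ubAPE1 line and 0.28 in the wtAPE1 line. CDH1, the E-cadherin of adherens junctions, was at 4.20 in ubAPE1 dox+ and 4.00 in ubAPE1 dox-, at 4.02 in wtAPE1 dox+ and 4.32 in wtAPE1 dox-, and at 4.56 in vector dox+ and 4.63 in vector dox-. Both vector columns were highest, but the row mean was under the filter in a range where 12.7% of rows lie lower, so CDH1 entered no test on the kept rows. Its differences were -0.50 in the ubAPE1 line and -0.43 in the wtAPE1 line.

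LRP2 and CLDN3 are shown with their promoter sequence as the pair of cell-surface members of which one was lower in both APE1 lines and the other was not. The windows run from 250 bases before to 50 bases after the transcript start, and are RefSeq sequence in build GRCh38.p14. Capitals mark the E-box CAGGTG, the kind of site that SNAI and ZEB repressors are known to bind, and the GC box GGGCGG, bound by SP1, on either strand. The LRP2 window is chr2:169362485-169362784 and the CLDN3 window chr7:73770221-73770520, both on the minus strand and written 5′ to 3′ in the direction of transcription.
LRP2: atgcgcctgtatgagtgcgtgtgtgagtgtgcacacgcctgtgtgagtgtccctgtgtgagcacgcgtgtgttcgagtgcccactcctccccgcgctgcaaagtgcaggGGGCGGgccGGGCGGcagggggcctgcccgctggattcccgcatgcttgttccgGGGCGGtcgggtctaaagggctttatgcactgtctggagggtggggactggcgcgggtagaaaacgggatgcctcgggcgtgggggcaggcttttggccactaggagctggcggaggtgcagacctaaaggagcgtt
CLDN3: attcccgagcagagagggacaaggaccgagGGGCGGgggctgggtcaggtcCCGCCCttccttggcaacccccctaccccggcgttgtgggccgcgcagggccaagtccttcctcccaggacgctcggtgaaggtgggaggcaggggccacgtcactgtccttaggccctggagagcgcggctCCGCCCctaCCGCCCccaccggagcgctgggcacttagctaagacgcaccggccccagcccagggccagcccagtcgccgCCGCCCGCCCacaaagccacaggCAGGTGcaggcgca

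The LRP2 window held 3 GC boxes and 0 E-boxes, and the CLDN3 window held 6 GC boxes, of which 1 pair overlaps, and 1 E-box, whose first base lies 36 bases after the start. No base belonged to both motifs. Among the 35116 promoter windows in the table, 20.6% hold at least 1 such E-box and 45% at least 1 GC box. The GC box was added to the search after the sequences had been seen. These matches describe letters in the windows and say nothing of binding. Of the measured members, KRT8 also had an entry, and EPCAM, KRT19, KRT18 and CDH1 had none.

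Counted by size, 4 of the 7 kept members (MAL2, EPCAM, KRT19 and LRP2) were at least 1.5-fold lower in both APE1 lines, and 0 were higher. Over all kept rows, 2.92% were at least 1.5-fold lower in the ubAPE1 line, 3.27% in the wtAPE1 line and 2.55% in both. Nothing is read from that comparison, since this contrast was known when the members were picked. LRP2 (-0.77 and -0.74) was the member closest to 1.5-fold among those past it, and KRT18 (-0.38 and -0.40) among those that did not reach it. The members had a median difference of -0.77 in the ubAPE1 line and -0.74 in the wtAPE1 line, against 0.03 for all kept rows in each line.

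**Figure D2:**
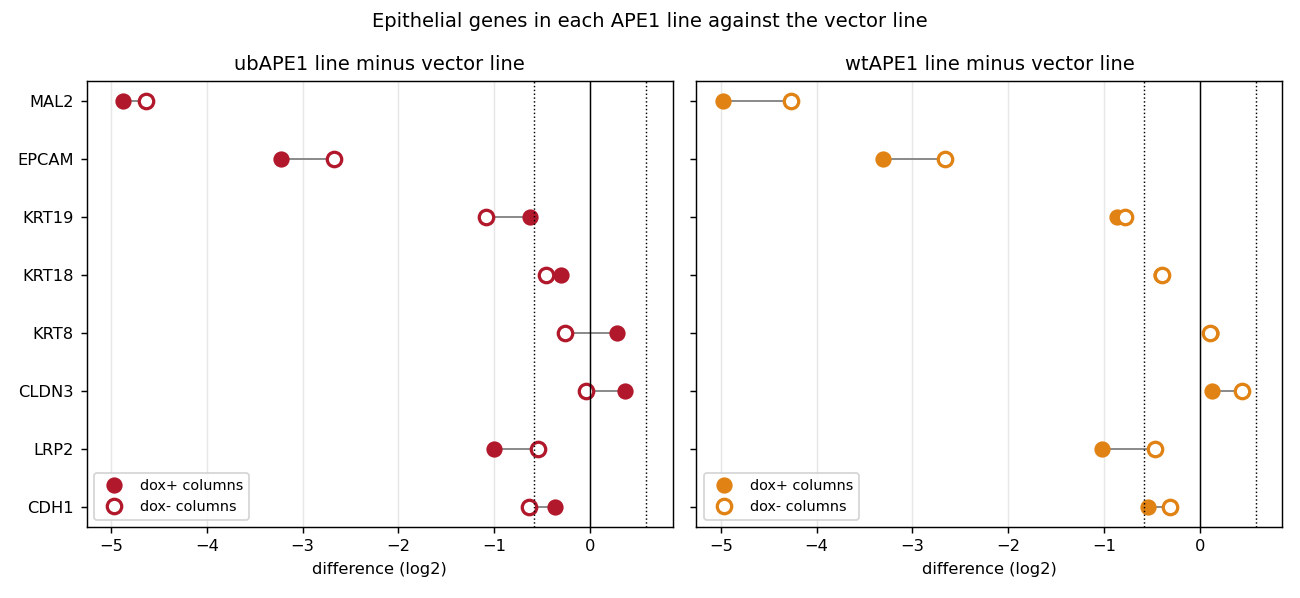
Difference in log2 level between each APE1 line and the vector line for the 8 measured genes, with filled points for the dox+ columns, open points for the dox- columns and dotted lines at 1.5-fold. MAL2 and EPCAM lie at -2.66 or below in every comparison, and KRT8 and CLDN3 lie between -0.26 and 0.44.

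The 2 APE1 lines were then set against each other. MAL2, EPCAM, KRT19 and LRP2 were chosen with the differences of both lines from the vector line known. This contrast is the difference of those differences, so for these genes it is not independent of the choice. MAL2 also lies near the bottom of the scale in both lines. With limma over all kept rows, 0 of 7 members differed between the ubAPE1 and wtAPE1 lines (adjusted p between 0.9999 and 1 over all settings tried), and 0.00861% of rows (1 of 11619) did. The estimates were small, with 95% intervals that allow modest differences either way. Each averages the dox+ and dox- differences, which had opposite signs for all 7 members. These were 0.25 (dox+) and -0.48 (dox-) for CLDN3, 0.24 and -0.31 for KRT19, 0.17 and -0.37 for KRT8, and 0.11 and -0.37 for MAL2. MAL2 was at -0.13 (-0.48 to 0.22) and EPCAM at 0.03 (-0.31 to 0.38). KRT19 lay at -0.04 (-0.39 to 0.31), KRT18 at 0.02 (-0.33 to 0.37) and KRT8 at -0.10 (-0.45 to 0.25). CLDN3 lay at -0.12 (-0.46 to 0.23) and LRP2 at -0.03 (-0.38 to 0.32). These intervals use a spread of 0.178 log2 that the fit shared over all rows. The columns of MAL2, EPCAM, CLDN3, KRT8, LRP2 and KRT19 scattered more about the fit (residual SD between 0.21 and 0.26), and those of KRT18 less (0.07). With each row's own spread the intervals would thus be wider for most members, though each such spread rests on 2 residual degrees of freedom.

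The response to doxycycline was described within each line as dox+ minus dox-. In the vector line, where the drug induces no APE1, MAL2 responded by 0.43, LRP2 by 0.36, EPCAM by 0.33 and CLDN3 by 0.33, all upward. The keratins lay near 0 there, with KRT18 at 0.01, KRT19 at -0.07 and KRT8 at -0.09. None of the 7 reached 1.5-fold, against 0.895% of all kept rows that did so in either direction.

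In the wtAPE1 line, EPCAM (-0.31), MAL2 (-0.27) and LRP2 (-0.19) lay on the other side of 0. KRT19 was at -0.15, KRT8 at -0.07, CLDN3 at 0.01 and KRT18 at -0.0002. No member reached 1.5-fold in this line, against 0.93% of rows. In the 4 APE1-line columns MAL2, EPCAM and LRP2 sit at the low end of the scale, so a response there starts from another level than in the vector line.

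In the ubAPE1 line, CLDN3 responded by 0.73 and was the 1 of 7 members past 1.5-fold, where 4.46% of all kept rows were past it in either direction. It ranked 47 of 11619 from the top. KRT8 (0.46) and KRT19 (0.39) came next, followed by MAL2 (0.20) and KRT18 (0.17), while LRP2 (-0.10) and EPCAM (-0.22) lay below 0. CDH1, under the row filter, responded by 0.20, -0.30 and -0.07 in the ubAPE1, wtAPE1 and vector lines. The ubAPE1 response went with gene length over all rows. Of 20 classes of genomic length, the shortest, which holds CLDN3, had a class median of 0.28, while that of the longest, which holds LRP2, was -0.10. Less the median of its class, CLDN3 was at 0.45 and as deposited at 0.57, both short of 1.5-fold. KRT8 was at 0.52, KRT19 at 0.15 and KRT18 at -0.07 less their class medians. The value for KRT8 depends on its annotated length of 52670 bases, whose class median was -0.055. KRT18 (4052 bases) and KRT19 (4692 bases) lay in a short class with a median of 0.24. The part of length in these responses was not tested further.

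**Figure D3:**
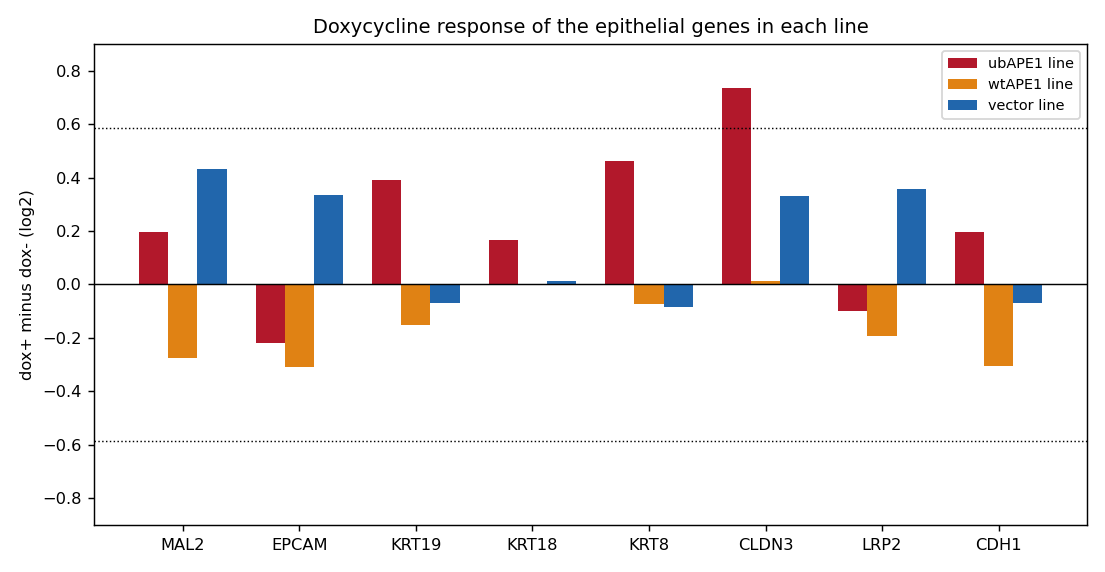
Doxycycline response (dox+ minus dox-, log2) of the 8 measured genes in the ubAPE1, wtAPE1 and vector lines, with 1 averaged column behind each state and dotted lines at 1.5-fold. CLDN3 in the ubAPE1 line (0.73) is the bar past 1.5-fold, and MAL2, EPCAM and LRP2 are above 0 in the vector line and below 0 in the wtAPE1 line.

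Whether doxycycline had an effect shared by the 3 lines was tested with limma, with the lines in the place of replicates. In the ubAPE1 and wtAPE1 lines dox+ also means induced APE1, so this estimate cannot separate the drug from the induction. APEX1 itself was called (0.73 log2, limma adjusted p 0.0019), though it responded by 0.19 in the vector line. The shared effect was called for 0 of 7 members (adjusted p between 0.9997 and 1 over all settings tried) and for 0.0775% of all rows. CLDN3 had the widest estimate, 0.36 ± 0.15 log2 (SE), with an unadjusted limma p of 0.0136 and a limma adjusted p of 0.9998. Its response was above 0 in 3 of 3 lines, but at 0.01 in the wtAPE1 line. Without the ubAPE1 line the CLDN3 estimate was 0.17. The other members lay between -0.06 (EPCAM) and 0.12 (MAL2), each with a standard error of 0.15. Since MAL2 and LRP2 passed the row filter only through the vector line, nothing is concluded from their estimates.

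The effect of induced APE1 beyond that of doxycycline, which is the question of the design, was tested with a further term shared by both APE1 lines. The limma test called 0 of 7 members (adjusted p between 0.9995 and 1 over all settings tried) and 0% of all rows, with 219 rows at an unadjusted p under 0.05. EPCAM was at -0.60 (95% interval -1.26 to 0.07), LRP2 at -0.50 (-1.17 to 0.16) and MAL2 at -0.47 (-1.13 to 0.19). MAL2 and LRP2 passed the row filter only through the vector line, and EPCAM too sits low in the APE1 lines. A fall on induction can be hidden at such levels, which leaves the vector response to set much of the term. Nothing is concluded from the terms of these genes. KRT8 lay at 0.28 (-0.38 to 0.94), KRT19 at 0.19 (-0.47 to 0.86), KRT18 at 0.07 (-0.59 to 0.74) and CLDN3 at 0.04 (-0.62 to 0.71). The intervals span more than 1 log2, so effects of 1.5-fold were not detectable. Both APE1 lines are set against the same vector response, and that 1 pair of columns alone can give them the same sign. For EPCAM, the response less that of the vector line was -0.55 in the ubAPE1 line and -0.64 in the wtAPE1 line. For KRT19 these values were 0.46 and -0.08, and for CLDN3 0.40 and -0.32, with opposite signs.

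Other genes of epithelial and kidney identity were taken from 8 lists with 144 genes, of which 81 were measured in the kept rows. Of these 81, 10 were at least 1.5-fold lower in both APE1 lines and 0 were higher in both, where 2.55% of all kept rows were lower in both and 0.499% higher in both. The lists were drawn up with earlier results of these data known, and the counts carry no test. The filter uses the mean of all 6 columns, so a row low in the APE1 lines can pass through the vector line. Among the 10, MYO5B (4.955 to 5.198 in the APE1-line columns) and RBM47 (4.825 to 5.165) lay close to the filter value of 5.03 there.

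Desmosomes and adherens junctions, which rivet neighbouring cells together, had 3 of 16 measured genes lower in both lines. PKP2, a plaque protein of desmosomes, was at 5.47 in ubAPE1 dox+ and 5.52 in ubAPE1 dox-, at 5.46 in wtAPE1 dox+ and 5.53 in wtAPE1 dox-, and at 7.23 in vector dox+ and 7.16 in vector dox-. It differed by -1.70 in both lines, and its APE1-line columns were nearly level. PERP, a desmosome-associated membrane protein, was at -0.84 in the ubAPE1 line and -0.87 in the wtAPE1 line, and the desmosomal cadherin DSC2 at -0.76 and -0.93. The median of this list was -0.28 in both lines.

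Of 17 measured genes of apical transport and polarity, 3 were lower in both lines. They were PODXL, an anti-adhesive sialomucin of the apical face (-1.35 in the ubAPE1 and -1.28 in the wtAPE1 line), the recycling motor MYO5B (-0.95 and -0.85) and the polarity scaffold PATJ (-0.72 and -0.68). The other 14 were not, and the list medians were -0.06 and -0.01. Among 4 measured EPCAM partners and surface proteases, the protease inhibitor SPINT2 was at -1.69 and -1.55, with levels between 6.24 and 6.58 in the APE1-line columns against 7.93 in vector dox+ and 7.99 in vector dox-.

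Of 11 other tight junction genes, LSR, a protein of the corners where 3 cells meet, was lower in both lines (-1.13 and -0.94), and the list medians were 0.05 and 0.14. Among 8 measured epithelial transcription and splicing factors, the RNA-binding protein gene RBM47 was lower in both (-1.24 and -1.03). Of the other keratins, 3 were measured and none passed 1.5-fold, with KRT7 at 0.25 and 0.24 and KRT13 at 0.20 and 0.31.

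Of 10 listed factors known to repress epithelial genes, 6 were measured in the kept rows, and SNAI1, SNAI2, SNAI3 and TWIST2 were not. Of these 6, 0 were at least 1.5-fold higher in both APE1 lines, and TCF4 was lower in both (-0.61 in the ubAPE1 and -0.67 in the wtAPE1 line). The other 5, named after their values had been seen, lay on both sides of 0. They were FOXC2 (0.27 and 0.47), GSC (0.23 and 0.29), TWIST1 (-0.14 and 0.08), ZEB1 (-0.15 and -0.12) and ZEB2 (-0.29 and -0.25). The 16 measured genes of kidney tubules and nephron progenitors, apart from LRP2, held none past 1.5-fold in either line. Their medians were 0.17 and 0.31, with the nephron regulators LHX1 (0.53 and 0.57) and SIX2 (0.47 and 0.50) furthest from 0.

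Markers of other cell types differed between the lines as well. Of 11 measured mesenchymal and fibroblast markers, 3 were higher and 1 was lower in both APE1 lines, with the matrix gene SPARC at 3.18 in the ubAPE1 and 3.04 in the wtAPE1 line, COL3A1 at 0.64 and 0.74, and COL6A1 at 0.59 and 0.66. Over all kept rows, 0.499% were higher and 2.55% lower in both lines. COL3A1 and COL6A1 lay close to 1.5-fold (0.585 log2). The column shift raised their differences, and as deposited neither reached that size in either line. CDH2, the N-cadherin of mesenchymal and neural cells, was lower, at -1.24 and -1.34. The mean level of that list ran from 6.77 to 6.89 in the APE1-line columns and was 6.44 and 6.41 in vector dox+ and dox-. SPARC weighs most in that mean. The list medians were 0.35 in the ubAPE1 and 0.36 in the wtAPE1 line, and 7 of the 11 were neither higher nor lower in both. Of 4 neuronal markers, ENO2 (-2.47 and -2.36) and NEFL (-0.67 and -0.65) were lower in both, and SYP, named after its values had been seen, was at 0.62 in the ubAPE1 line, past 1.5-fold, and at 0.29 in the wtAPE1 line. The mean level of the neuronal list ran from 6.78 to 6.96 in the APE1-line columns and was 7.56 and 7.57 in the vector columns. ENO2 weighs most in that mean, since INA was at -0.09 and -0.22 and SYP lay above 0 in both lines. Of the blood cell markers, CD68 (-0.35 and -0.25) and CD8A (0.004 and 0.22) were measured, with a mean level from 5.77 to 6.21 over the APE1-line columns and at 6.07 and 6.17 in the vector columns. Of the endothelial markers, CLDN5 was measured (0.32 and 0.36), at 6.56 to 6.68 in the APE1-line columns and at 6.33 and 6.27 in the vector columns. The part of other cell types in the member differences was not tested.

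**Figure D4:**
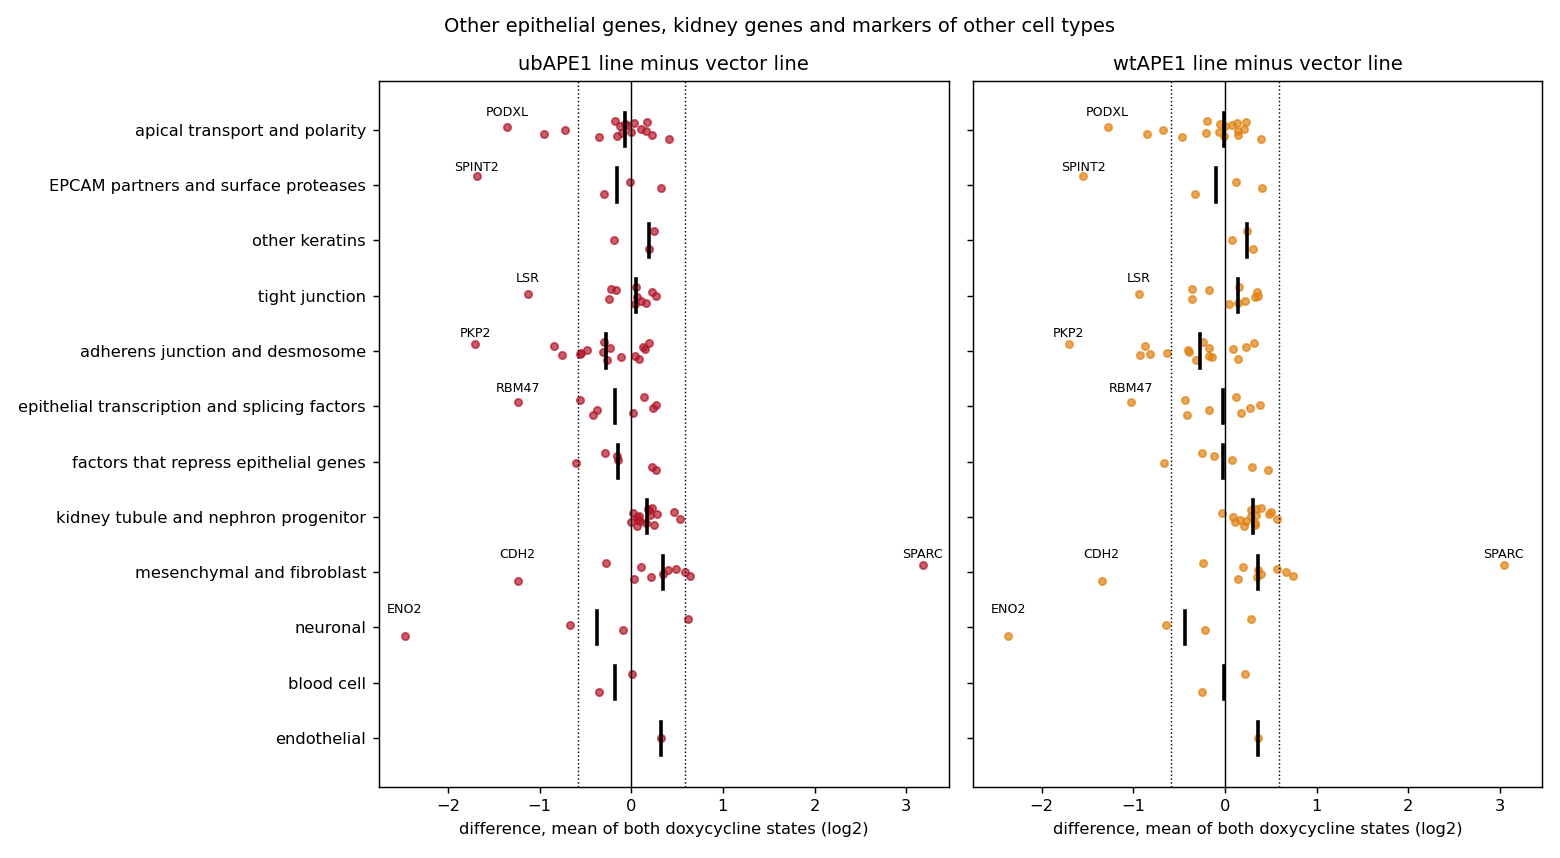
Difference from the vector line (log2, mean of both doxycycline states) in the ubAPE1 and wtAPE1 lines for the measured genes of 8 epithelial and kidney lists and 4 lists of other cell types, 1 point per gene, with bars at the medians and dotted lines at 1.5-fold. PKP2 (-1.70 in both lines) and SPINT2 (-1.69 and -1.55) lie furthest left among the epithelial lists, and SPARC (3.18 and 3.04) lies alone on the right.

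Rows with the pattern most like MAL2, EPCAM and KRT19 were found by Pearson's r over the 6 columns, among 276 other kept rows whose 6 values span at least 1 log2. The 6 columns share the 3 lines, so this likeness mostly ranks rows by how cleanly they split the vector line from the others. It is a description. For MAL2 the closest were TTC39A (r = 0.999), the desmosome gene PKP2 (0.998), the axonal motor KIF1A (0.998), DOP1B (0.998) and NIBAN1 (0.997), and 109 of the 276 rows had r over 0.95. None of these 5 differed as widely as MAL2. NIBAN1 was at -2.31 in the ubAPE1 line and -2.30 in the wtAPE1 line, and DOP1B at -1.15 and -1.12. Both passed the row filter only through the vector line. In the APE1-line columns NIBAN1 lay at 4.41 to 4.65 and DOP1B at 4.84 to 4.94, under the filter value of 5.03. For EPCAM they were the collagen COL14A1 (0.998), PKP2 (0.998), the sphingosine phosphatase SGPP2 (0.998), the basement membrane ligand NPNT (0.998) and the transsulfuration enzyme CTH (0.997). SGPP2 had the closest sizes, at -2.07 and -2.09, and like EPCAM it was lower with doxycycline than without it in the ubAPE1 (-0.32) and wtAPE1 (-0.39) lines. The other rows named for EPCAM were lower with doxycycline in these lines too, which the choice by likeness favours.

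KRT19 had fewer rows with r over 0.95, 44 of 276. The closest were the tight junction gene LSR (0.990), the actin-associated CSRP1 (0.990), the glutathione-degrading enzyme CHAC1 (0.987), PODXL (0.987) and the phospholipase PLAAT3 (0.986). As in KRT19, the lowest of the 6 columns was ubAPE1 dox- for each of them, which follows largely from their choice by likeness. That column was also the lowest for MAL2, KRT18, KRT8, CLDN3 and CDH1, and not for EPCAM and LRP2. Between members, EPCAM and MAL2 had r = 0.996 over the 6 columns and EPCAM and KRT8 had r = -0.24.

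**Figure D5:**
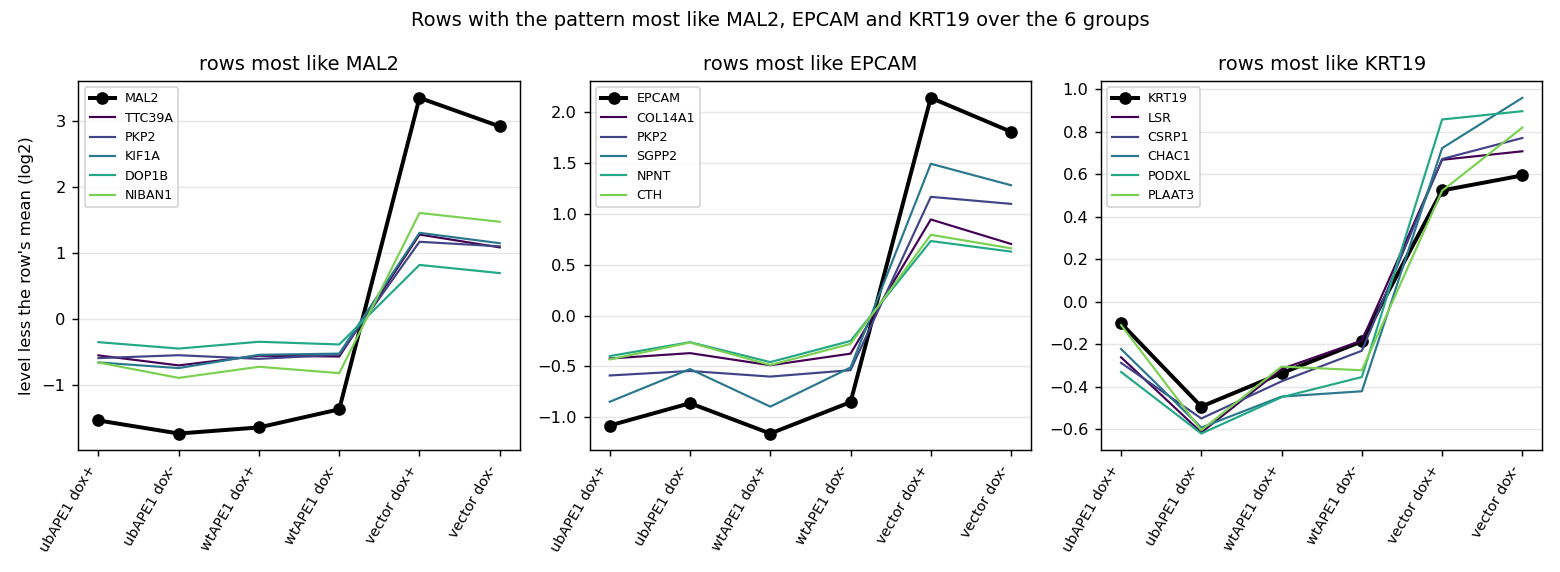
Levels less the row's mean (log2) over the 6 groups for MAL2, EPCAM and KRT19 (black) and the 5 rows most like each (coloured lines). All rows shown are higher in both vector columns than in the 4 APE1-line columns, and in the KRT19 panel ubAPE1 dox- is the lowest column of each row. The rows were chosen by likeness over these same columns, which favours both traits.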

How the data were processed

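The authors deposited log2 expression levels per array row for 6 groups, each column being the mean of 3 biological replicates per the labels. That they are log2 follows from the values themselves. How probes were summarised, corrected and normalized is not given in the sources used here. Genome build hg 18 is named in the submitters' processing notes. Rows were named from the platform annotation, and only rows with 1 symbol (12616 of 15492) were named, with symbols updated through the gene ID (GRCh38.p14). No pair of columns was identical.

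Rows at or above the 25th percentile of row means were kept and the columns shifted to one median. Differences between single columns carry no test. Tests used lmFit and eBayes of limma 3.58.1 in R 4.3.3. P-values were adjusted by Benjamini-Hochberg over the 11619 kept rows, and 0.05 was the threshold. Terms were line and doxycycline (2 residual degrees of freedom), plus induced APE1 (1 residual degree of freedom). Lines or doxycycline states stand in for replicates. After the shift the fit's prior was infinite, so every row shares one spread. The fits were tested on simulated data. Alternatives changed the scaling, the row filter, a floor on low values, the size rule, the length trend, the doxycycline states used, the prior, the rows per gene and the lines left out.

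All rows of the 9 members are named. From each list the named genes are those at least 1.5-fold apart in both lines, up to 4, or else the 2 furthest apart. The 5 rows most like each of 3 members are named as well. Members and lists were chosen with earlier results of these data known. Protein sequences were not used here. The number of arrays limits the precision.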

Additional observations from a re-analysis of the deposited data

Results flagged for a closer look

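The responses of 2 members to doxycycline had opposite signs in a pair of lines and differed by at least 1.5-fold. MAL2 responded by -0.27 in the wtAPE1 line and by 0.43 in the vector line, a difference of -0.71. EPCAM responded by -0.31 in the wtAPE1 line and by 0.33 in the vector line, a difference of -0.64. Each response rests on 1 averaged column per state, and the differences were not tested. As deposited, neither reached 1.5-fold (-0.56 for MAL2 and -0.50 for EPCAM), and with quantile normalization EPCAM did not (-0.57). No group has the 4 samples that a check for outlying samples needs.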

How the results depend on the processing

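The size counts depend on the row filter, the size chosen, the scaling and the doxycycline states used. With rows at or above the 50th percentile of row means, 1 member was lower in each APE1 line against 4, since MAL2, EPCAM and LRP2 drop out, and 0 members passed 1.5-fold in the ubAPE1 response. With a 2-fold size, 2 members were lower in each line, 0 passed in the ubAPE1 response, and 4 list genes were lower in both lines against 10. With the 50th percentile filter, 6 list genes were. In the dox+ columns alone, 1 list gene was higher in both lines, against 0. CLDN3 no longer passed 1.5-fold in the ubAPE1 response as deposited or with the length trend removed, which left 0 members there. Over all rows, the number at least 1.5-fold lower went from 339 to 545 in the ubAPE1 line and from 380 to 836 in the wtAPE1 line as deposited. With the dox+ columns alone it was 811 and 460. Rows past 1.5-fold in the ubAPE1 response went from 518 to 1039 as deposited, so the all-row shares given above depend on the scaling. No member passed a limma threshold under any setting.

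Small estimates changed sign. For the common doxycycline effect these were MAL2 without the vector line (-0.038), EPCAM without the wtAPE1 (0.057) or ubAPE1 line (0.013), KRT19 (-0.11) and KRT8 (-0.079) without the ubAPE1 line, and LRP2 as deposited (-0.026), after quantile normalization (-0.018) or without the vector line (-0.145). For the ubAPE1 line minus the wtAPE1 line, these were, in the dox+ columns alone, MAL2 (0.105), KRT19 (0.235), KRT8 (0.169), CLDN3 (0.246) and LRP2 (0.017), and in the dox- columns alone EPCAM (-0.011) and KRT18 (-0.062). As deposited, KRT19 (0.029) and LRP2 (0.036) did, with quantile normalization KRT18 (-0.026) and LRP2 (0.033), and with the length trend removed KRT19 (0.022). The cause was not tested. The list medians turned sign under 3 settings in each line for tight junction genes, under 3 in the wtAPE1 line for the factors that repress epithelial genes (up to 0.13), under 2 in the ubAPE1 line and 1 in the wtAPE1 line for epithelial factors, under 2 in the wtAPE1 line for apical genes, under 2 in the ubAPE1 line for other keratins and under 1 in the wtAPE1 line for EPCAM partners. Over all rows, the common effect called 9 rows, against 0 as deposited, 0 with quantile normalization, 0 with no cell line term, 3 with the stricter filter, 16 with no filter, and 4, 4 and 31 without the vector, wtAPE1 and ubAPE1 lines. The ubAPE1 line minus the wtAPE1 line called 1 row, against 13 with no filter and 0 as deposited, with quantile normalization and with the stricter filter. The induced term called 0, against 14 with no filter, 1 with the stricter filter and 1 with the spread of the additive fit. A pseudocount was not tried, since the values are already log2. The limma fits already set dox+ against dox- within each line. No paired analysis was possible because of the averaging, which left no replicate numbers to pair by.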

Other observations

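Keratins and claudins outside the members were described in the ubAPE1 response to doxycycline, where CLDN3, KRT8 and KRT19 had the highest member values. In that response 54.6% of all kept rows lay above 0, and lists of other kinds had raised medians too (0.27 for kidney genes, 0.23 for epithelial factors). All 3 other measured keratins lay above 0, with KRT7, a keratin of ducts, at 0.51, KRT14 at 0.39 and KRT13 at 0.36. In the wtAPE1 line they were at -0.16, -0.17 and -0.04, and in the vector line at 0.04, 0.04 and -0.09. Of 5 other measured claudins, 4 lay above 0 in the ubAPE1 line, with CLDN9 at 0.64, CLDN23 at 0.39, CLDN11 at 0.33 and CLDN5 at 0.12, and CLDN12 lay at -0.40. CLDN9, CLDN23 and CLDN5 share the shortest length class with CLDN3, whose median ubAPE1 response was 0.28. With class medians subtracted, 3 of these 5 claudins and 3 of 3 keratins lay above 0. The subtraction sets the median of each class to 0, and counts this small are not read as a trait of either family.

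KRT8 also stands in the annotation of 3 rows shared with another gene, which were not used for it. Their differences from the vector line were 0.14 and 0.26, -0.11 and -0.18, and 0.31 and 0.37 in the ubAPE1 and wtAPE1 lines.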
